A study of Mus musculus with 12 samples.

Results

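The common gamma chain cytokine receptors are the cell surface chains through which lymphocytes receive IL-2, IL-4, IL-7, IL-9, IL-15 and IL-21. The genes taken here were a set list of 7, namely Il2ra, Il2rb, Il2rg, Il4ra, Il7r, Il9r and Il15ra. Each was read from a probe set, a group of array probes for a transcript, that carried exactly 1 gene symbol in the platform annotation. By this rule 6 of the 7 listed genes were measured, each by 1 probe set, among 22180 genes measured in the series. Il2rg had no probe set with exactly 1 symbol in the annotation used and was not analysed here. Genes with a mean of 5 or more in at least 1 group on the log2 scale were tested, which left 5 of the 7 listed genes and 9862 genes in all. Il9r lay below that level in all groups.

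The samples were mouse CD8 T cells, the lineage that gives rise to cytotoxic cells, profiled on 12 Affymetrix arrays. The 4 groups were Tc17 STAT3-/-, Tc17 WT, Tc1 STAT3-/- and Tc1 WT. STAT3-/- cells carried Cd4cre and a floxed STAT3 allele on both chromosomes (Cd4cre+ STAT3fl/fl), and WT cells were the wild type. The Cd4 promoter drives Cre in developing T cells, so that CD8 T cells lose the gene as well. Naive CD8 T cells of both genotypes were sorted from spleen, put together at a ratio of 1 to 1 and activated with anti-CD3 (1 µg/ml) and anti-CD28 (3 µg/ml). Culture lasted 4 days, of which 3 were under polarising cytokines, IL-6 plus TGFb for the Tc17 groups and IL-12 for the Tc1 groups, and 1 was with IL-2 for every group. The genotypes were then separated by sorting on allelic markers, so both genotypes of a condition had shared a culture until then. Ages, and the animals or cultures behind each replicate, were not given in the sources used here. Each group had biological arrays 1 and 2 and a technical array numbered 2, which was averaged with biological array 2, leaving 2 samples per group.

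The gamma chain, encoded by Il2rg, pairs with a private chain for each cytokine and passes the signal to the kinases JAK1 and JAK3, which activate STAT proteins. IL-2 and IL-15 share the beta chain encoded by Il2rb and differ in their alpha chains, which Il2ra and Il15ra encode. In CD8 T cells, IL-7 through Il7r sustains naive and memory cells, and IL-2 through Il2ra and Il2rb drives growth and effector function after activation. Il4ra serves IL-4 with the gamma chain and also IL-13 in another receptor, and signals mainly through STAT6. IL-21, whose receptor chain is Il21r, signals mainly through STAT3.

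The upstream sequences of Il7r and Il4ra are shown because these were the receptor genes that passed the test in both comparisons involving Tc17 WT cells. They are from RefSeq's promoter table, assembly GRCm38.p6, and cover the 250 bases before the annotated start, 5′ to 3′ on the strand of the gene. Il7r lies on the minus strand at chr15:9529877-9530126, and Il4ra on the plus strand at chr7:125552021-125552270. Capitals mark a match to the STAT motif with 3 free bases, and lower case is the rest.
Il7r: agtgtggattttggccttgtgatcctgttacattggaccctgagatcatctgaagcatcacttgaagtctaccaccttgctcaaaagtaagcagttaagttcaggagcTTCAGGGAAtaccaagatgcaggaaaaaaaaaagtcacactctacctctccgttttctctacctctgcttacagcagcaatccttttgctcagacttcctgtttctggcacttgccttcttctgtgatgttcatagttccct
Il4ra: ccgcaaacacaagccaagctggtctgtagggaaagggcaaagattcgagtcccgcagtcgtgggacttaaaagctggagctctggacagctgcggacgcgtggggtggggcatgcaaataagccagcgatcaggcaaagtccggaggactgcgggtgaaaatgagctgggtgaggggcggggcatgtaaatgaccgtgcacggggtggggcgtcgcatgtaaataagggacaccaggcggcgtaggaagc

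Of the 7 listed genes, 6 had an entry in the promoter table, with 7 windows in all since Il15ra had more than one start site. Il2rb had no entry, so its upstream sequence was not searched. The letters TTCNNNGAA, the form that STAT3 and STAT5 recognise, and GTAAACA, a FOXO motif, were searched on both strands of the 250 bases before each start. A STAT6 motif was searched too, which is the first of these with 4 free bases N in place of 3. TTCNNNGAA occurred in 7.02% of all 32851 windows of the table, the STAT6 motif in 5.85% and GTAAACA in 3.17%. Among the listed genes the Il7r window held the only match, TTCAGGGAA at chr15:9530010-9530018, from 142 to 134 bases before the start. None of the letters searched were found in the 250 bases of Il4ra. A match is a description of the letters and not evidence of binding.

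Defining genes of CD8 T cells were measured at high levels in every group, with Cd8a from 11.05 to 11.54 and Cd3e from 11.46 to 12.09 on the log2 scale over the arrays. Stat3, the deleted gene, stood on the Tc17 arrays at 7.80, 7.93 and 7.59 in STAT3-/- cells, against 10.72, 10.69 and 10.38 in WT cells. On the Tc1 arrays it stood at 7.67, 7.16 and 6.99 in STAT3-/- cells, against 10.13, 10.11 and 9.77 in WT cells. All STAT3-/- arrays therefore lay below all WT arrays for the deleted gene. The technical array of Tc17 WT stood apart, with a median correlation of 0.933 with the other arrays, against 0.961 and 0.962 for the other Tc17 WT arrays and at least 0.977 for the rest. Relative to the deposited scale, the median tested gene was 0.11 higher in Tc17 STAT3-/- than in Tc17 WT, and 0.10 lower in Tc17 WT than in Tc1 WT. Receptor changes are also given below after each array's median over the tested genes was subtracted.

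Il4ra and Il7r fell in Tc17 STAT3-/- cells relative to Tc17 WT cells, by factors of 1.47 and 1.25, and no receptor gene passed the test for the loss of STAT3 in Tc1 cells. For the difference between these genotype effects no receptor gene passed in the main fit. Between the conditions in WT cells, Il4ra and Il7r were higher in Tc17 than in Tc1. Il2rb was lower, a call lost in 9 of the 22 alternative settings. Il2ra and Il15ra passed the test in none of the comparisons of the main fit. RNA was measured in bulk, so a lower value cannot be told apart between fewer cells with a transcript and less transcript per cell.

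**Figure D1:**
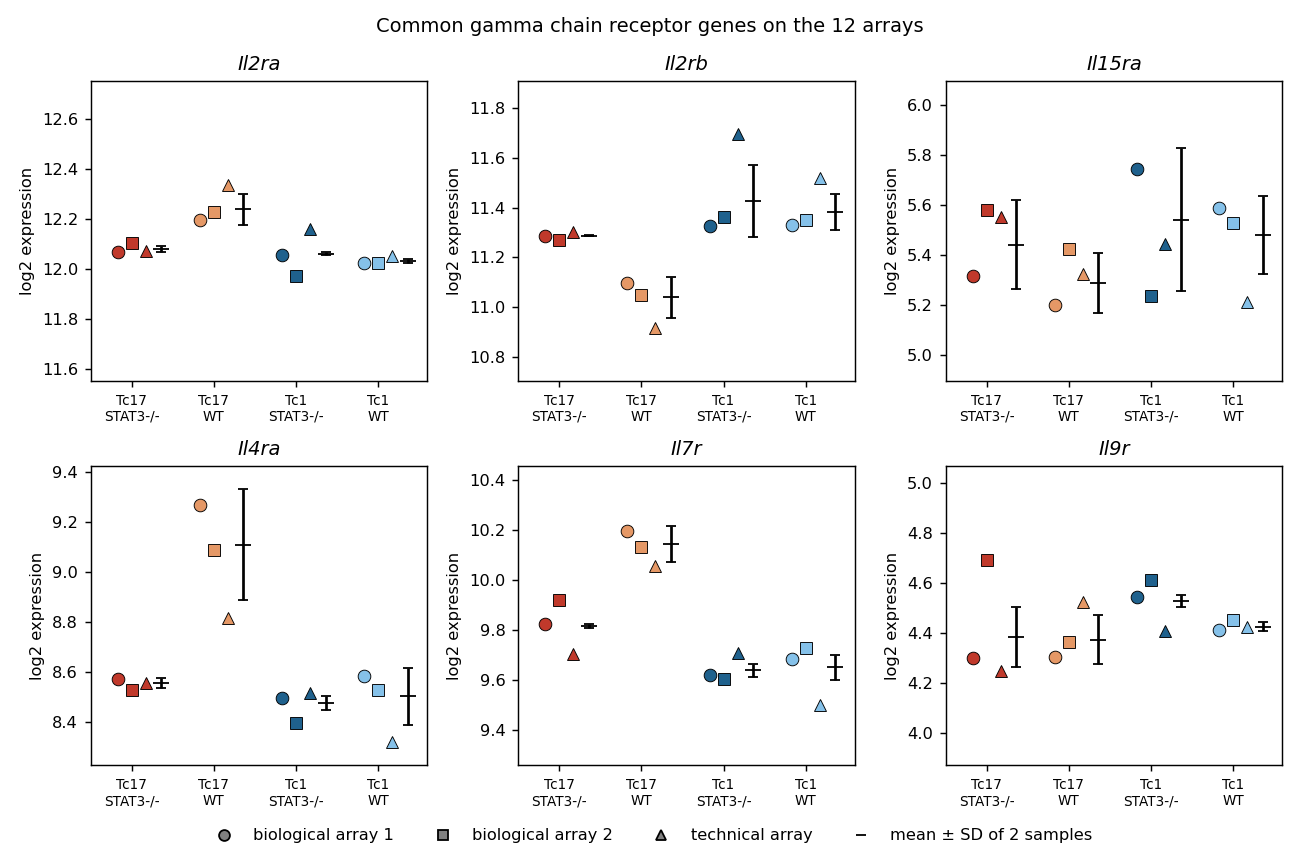
Log2 expression (vertical axes) of the 6 measured receptor genes in Tc17 STAT3-/-, Tc17 WT, Tc1 STAT3-/- and Tc1 WT cells. Circles and squares are biological arrays 1 and 2, triangles the technical array, and bars the mean ± SD of the 2 samples. The 3 Tc17 WT arrays of Il4ra and of Il7r lie above all arrays of the other groups.

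Il4ra encodes the chain that binds IL-4. On the Tc17 arrays it stood at 8.57, 8.52 and 8.55 in STAT3-/- cells, against 9.27, 9.09 and 8.82 in WT cells. On the Tc1 arrays it stood at 8.49, 8.39 and 8.51 in STAT3-/- cells, against 8.58, 8.53 and 8.32 in WT cells. The Tc17 WT arrays were all higher than every other array, and the other groups lay close together. Means were 8.55 ± 0.021 in Tc17 STAT3-/-, 9.11 ± 0.22 in Tc17 WT, 8.47 ± 0.029 in Tc1 STAT3-/- and 8.50 ± 0.11 in Tc1 WT (log2 units, SD, n = 2 samples each). The Tc17 WT technical array, the one that stood apart, was the lowest of its group.

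In Tc17 cells Il4ra fell by 0.55 on the log2 scale in STAT3-/- relative to WT (SE 0.12, 95% interval -0.82 to -0.29, limma adjusted p = 0.0100). In Tc1 cells the log2 change was -0.03, with an interval from -0.29 to 0.24 (limma adjusted p = 0.998). The difference between these effects was -0.53 (SE 0.17, interval -0.90 to -0.15), with an unadjusted limma p of 0.0115 and an adjusted p of 0.0955. In that fit the difference did not pass the threshold of 0.05. After subtracting the array medians the Tc17 change was -0.67 (limma adjusted p = 0.00138), and the difference was -0.64 and passed the test (limma adjusted p = 0.0231). Without the Tc17 WT technical array the Tc17 change was -0.62 (limma adjusted p = 0.00207) and the difference passed as well, at -0.59 (limma adjusted p = 0.0278). When Tc17 WT sample 2, which includes that array, was left out, the difference was -0.68. When Tc17 WT sample 1 was left out it was -0.37, and these were the ends of its range over the alternatives. Of 21 alternative settings the difference passed in 6 and did not pass in 15. Quantile normalization and subtracting the median of all probe sets were among those in which it did not pass.

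Il7r encodes the IL-7 receptor alpha chain, which activated effector cells lower and memory precursors keep. On the Tc17 arrays it stood at 9.82, 9.92 and 9.70 in STAT3-/- cells, against 10.20, 10.13 and 10.06 in WT cells. On the Tc1 arrays it stood at 9.62, 9.60 and 9.71 in STAT3-/- cells, against 9.69, 9.73 and 9.50 in WT cells. Tc17 WT was again above every other array, and Tc17 STAT3-/- overlapped the Tc1 STAT3-/- arrays only at its lowest array. The means were 9.82 ± 0.0074 in Tc17 STAT3-/-, 10.15 ± 0.072 in Tc17 WT, 9.64 ± 0.024 in Tc1 STAT3-/- and 9.65 ± 0.050 in Tc1 WT (log2 units, SD, n = 2 samples each). The small SD of Tc17 STAT3-/- followed from averaging its arrays at 9.92 and 9.70, and its arrays ranged over 0.22.

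The Tc17 change of Il7r in STAT3-/- relative to WT was -0.33 on the log2 scale (SE 0.086, interval -0.52 to -0.13, limma adjusted p = 0.0248). In Tc1 cells it was -0.01 (interval -0.21 to 0.18, limma adjusted p = 0.998). The difference between the effects, -0.32 (interval -0.59 to -0.04), had an unadjusted limma p of 0.0299 and an adjusted p of 0.157, so that it did not pass. After subtracting the array medians the Tc17 change was -0.45 (limma adjusted p = 0.00573).

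With n = 2 per group, the Tc17 calls of both genes rested on each Tc17 STAT3-/- sample. Leaving out sample 1 gave a limma adjusted p of 0.0610 for Il4ra and 0.130 for Il7r, and leaving out sample 2 gave 0.0704 and 0.139. Il7r lost its call in 7 of the 22 alternative settings in all, and Il4ra in 2. For Il7r the others were leaving out Tc17 WT sample 1 and using no filter on dim genes (limma adjusted p = 0.0759). The call was also lost with the median of all probe sets subtracted (limma adjusted p = 0.0706). So it was with the technical arrays averaged with biological array 1 and with only the groups of the comparison (limma adjusted p = 0.0641 and 0.0638).

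Il2rb encodes the beta chain shared by the IL-2 and IL-15 receptors, which carries much of the signal from both. On the Tc17 arrays it stood at 11.29, 11.27 and 11.30 in STAT3-/- cells, against 11.10, 11.05 and 10.92 in WT cells. On the Tc1 arrays it stood at 11.33, 11.36 and 11.70 in STAT3-/- cells, against 11.33, 11.35 and 11.52 in WT cells. The lowest arrays were those of Tc17 WT, below all arrays of the other 3 groups. The means were 11.29 ± 0.0019 in Tc17 STAT3-/-, 11.04 ± 0.082 in Tc17 WT, 11.43 ± 0.14 in Tc1 STAT3-/- and 11.38 ± 0.072 in Tc1 WT (log2 units, SD, n = 2 samples each). The log2 change for the loss of STAT3 in Tc17 was 0.24 (interval 0.016 to 0.47, limma adjusted p = 0.107), which did not pass, and it was 0.13 after subtracting the array medians. In Tc1 it was 0.04 (interval -0.18 to 0.27).

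Il2ra encodes CD25, the alpha chain that gives activated T cells high affinity for IL-2, a cytokine present on the last day of every culture. On the Tc17 arrays it stood at 12.07, 12.10 and 12.07 in STAT3-/- cells, against 12.19, 12.23 and 12.33 in WT cells. On the Tc1 arrays it stood at 12.06, 11.97 and 12.16 in STAT3-/- cells, against 12.03, 12.02 and 12.05 in WT cells. Tc17 WT was the highest group, by a small margin. The log2 change for the loss of STAT3 in Tc17 was -0.16 (interval -0.35 to 0.030, limma adjusted p = 0.190), and in Tc1 it was 0.03 (interval -0.16 to 0.22). Il2ra did not pass the test in any comparison of the main fit. After subtracting the array medians it was higher in Tc17 WT than in Tc1 WT by 0.32 and passed (limma adjusted p = 0.0429).

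Il15ra encodes the chain that binds IL-15 and presents it to neighbouring cells. On the Tc17 arrays it stood at 5.32, 5.58 and 5.55 in STAT3-/- cells, against 5.20, 5.42 and 5.32 in WT cells. On the Tc1 arrays it stood at 5.74, 5.24 and 5.45 in STAT3-/- cells, against 5.59, 5.53 and 5.21 in WT cells. The arrays of all groups overlapped, and the group means spanned 0.25 on the log2 scale, against a range within a group of 0.22 to 0.51. The Tc17 change was 0.15 (interval -0.19 to 0.50) and the Tc1 change 0.06 (interval -0.29 to 0.41), neither of which passed. Il9r, the IL-9 receptor chain, ranged over all 12 arrays from 4.25 to 4.69 on the log2 scale, near the array medians of 3.95 to 4.10.

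Counted together, 2 of the 5 tested receptor genes were called in Tc17 STAT3-/- over WT, both lower and none higher. Over all genes tested, 25.1% were called there, 18.2% higher and 6.83% lower. In Tc1 STAT3-/- over WT 0 of 5 were called by limma, and 0 had an unadjusted p under 0.05, where 0.0608% of all genes were called, 0.0203% higher and 0.0406% lower. For the difference between the genotype effects 0 of 5 were called and 2 had an unadjusted p under 0.05, against 6.85% of all genes called, 4.48% higher and 2.37% lower. With 5 genes, such counts are a description of these receptors and not a test of the family.

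**Figure D2:**
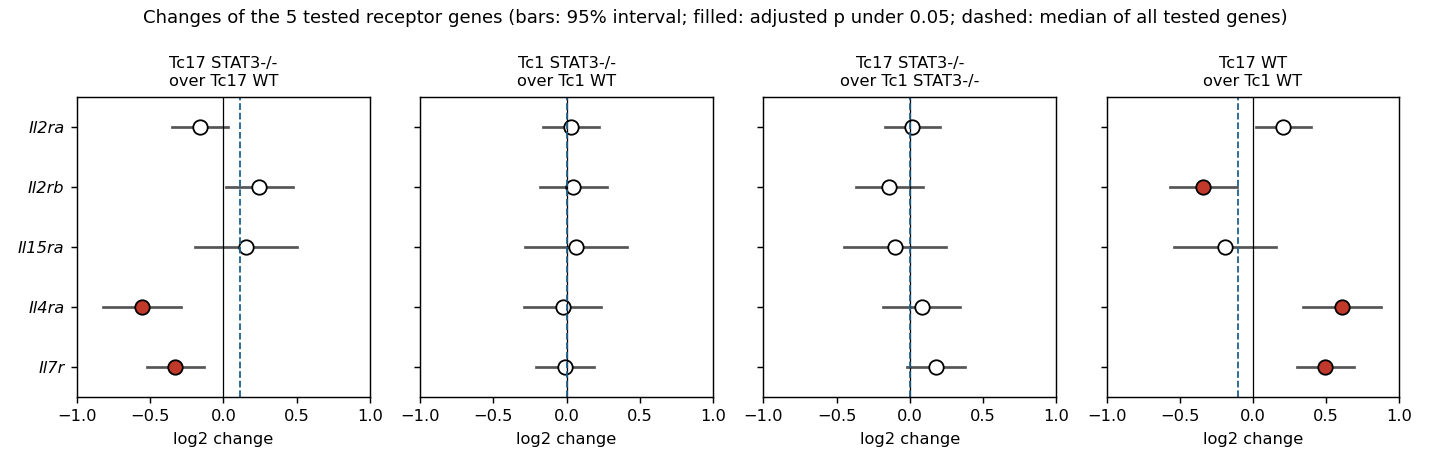
Log2 change (horizontal axes) of the 5 tested receptor genes in 4 comparisons, with 95% intervals as bars. Filled points passed at a limma adjusted p under 0.05 and the dashed line is the median of all tested genes. Filled points appear only in the comparisons that include Tc17 WT.

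The culture conditions were compared within each genotype. In WT cells, Tc17 over Tc1, 3 of 5 receptor genes were called, 2 higher and 1 lower. Of all genes tested 25.0% were called there, 7.01% higher and 18.0% lower. Il4ra was higher in Tc17 WT by 0.61 on the log2 scale (SE 0.12, interval 0.34 to 0.87, limma adjusted p = 0.00675), a 1.52-fold difference. Il7r was higher by 0.49 (SE 0.086, interval 0.30 to 0.69, limma adjusted p = 0.00428), a 1.41-fold difference. The log2 change of Il2rb was -0.34 (SE 0.10, interval -0.57 to -0.11, limma adjusted p = 0.0381), or 1.27-fold lower in Tc17 WT. This call of Il2rb did not hold once the array medians were subtracted, at -0.23 (limma adjusted p = 0.177), and it was lost in 9 of the 22 alternative settings, among them leaving out either Tc17 STAT3-/- sample, either Tc1 WT sample or Tc17 WT sample 2. Without Tc1 WT sample 2 the call of Il4ra was lost as well (limma adjusted p = 0.0524). Il2ra had a log2 change of 0.21 (interval 0.017 to 0.40, limma adjusted p = 0.101) and Il15ra of -0.19 (interval -0.54 to 0.16, limma adjusted p = 0.382).

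In STAT3-/- cells, Tc17 over Tc1, 0 of 5 receptor genes were called by limma and 0 had an unadjusted p under 0.05. Over all genes 2.07% were called, 1.05% higher and 1.01% lower. Il7r had a log2 change of 0.18 (interval -0.017 to 0.37, limma adjusted p = 0.507), Il4ra of 0.08 (interval -0.19 to 0.35) and Il2rb of -0.14 (interval -0.37 to 0.088). The Tc17 WT samples enter both the genotype comparison in Tc17 and the condition comparison in WT, so the opposite signs of Il4ra and Il7r in these are not independent of each other. Set against Tc1 STAT3-/-, with which it was not paired in the design, Tc17 WT was also higher for Il4ra by 0.63 and for Il7r by 0.51 on the log2 scale and had an Il2rb change of -0.39 (limma adjusted p = 0.00453, 0.00314 and 0.0210). Tc17 STAT3-/- over Tc1 WT gave no call, with limma adjusted p of at least 0.603 for the tested receptor genes. For Il4ra and Il7r the order of group means was Tc17 WT, then Tc17 STAT3-/-, then the Tc1 groups, and beyond Tc17 WT no pair of groups passed the test.

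The other genes of the pathway were read from lists arranged by role, 38 genes of which 29 were tested. In Tc17 STAT3-/- over WT, 16 of the 29 were called, 8 higher and 8 lower, or 55.2%, beside 25.1% of all genes tested, 18.2% higher and 6.83% lower. The median log2 change of the 29 was -0.06, beside 0.11 over all genes tested. The 8 lower genes include the deleted Stat3, whose fall followed from the design. They also include Il21 and Bcl6, which passed the filter on dim genes through Tc17 WT alone, where they were highest. These genes were chosen for the pathway and for this system with earlier results known, so the share is a description. In Tc1 1 of 29 was called, which was the deleted Stat3, beside 0.0608% of all genes. For the difference between the genotype effects 6 of 29 were called, beside 6.85% of all genes. In Tc17 over Tc1 14 of 29 were called in WT cells and 2 of 29 in STAT3-/- cells, beside 25.0% and 2.07% of all genes.

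Among the cytokines, Il21, which STAT3 is known to induce, was the only one of 7 that passed the filter on dim genes, and it did so through Tc17 WT alone. It stood at 3.72, 3.79 and 3.66 in Tc17 STAT3-/- cells, against 6.61, 6.18 and 7.02 in Tc17 WT cells. The log2 change was -2.88 (limma adjusted p = 4.6e-07), and the Tc1 arrays of both genotypes lay between 3.55 and 3.69. Il9, the ligand of Il9r, was not tested for its low level. It stood at 3.04, 3.32 and 2.99 in Tc17 STAT3-/- cells, against 3.92, 4.15 and 4.95 in Tc17 WT cells, and at 2.89 to 3.14 on the Tc1 arrays. With no filter on dim genes Il9 was lower in Tc17 STAT3-/- than in Tc17 WT, with a log2 change of -1.14 (limma adjusted p = 0.00323). Il2, Il4, Il7, Il15 and Tslp also lay below the filter in all groups.

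Among the partner chains, Il21r fell in Tc17 STAT3-/- cells, with 9.20, 9.10 and 9.27 there, against 9.67, 9.54 and 9.64 in Tc17 WT cells. The log2 change was -0.44 (SE 0.10, limma adjusted p = 0.0130), and in Tc1 it was -0.12. Without either Tc17 STAT3-/- sample the call was lost (limma adjusted p = 0.0804 and 0.0855). In the RefSeq table Il4ra and Il21r neighbour each other on chromosome 7, with 0 protein-coding genes between them, and both fell in Tc17 STAT3-/- cells. The window before the Il21r start held a FOXO motif on the opposite strand, TGTTTAC at chr7:125603391-125603397, from 38 to 32 bases before the start. Of all windows 3.17% held this motif, and the match is not evidence of binding. The window of Crlf2, the other partner chain searched, held none of the letters searched. Il2ra and Il15ra neighbour each other on chromosome 2 in the same way, and neither was called. Crlf2, which pairs with Il7r to bind TSLP, had a log2 change of -0.10 in Tc17 (limma adjusted p = 0.424), and was higher in Tc17 than in Tc1 by 0.37 in WT cells and by 0.45 in STAT3-/- cells (limma adjusted p = 0.0149 and 0.0319). The Crlf2 call was lost in 5 of the 22 alternative settings in WT cells, among them leaving out either Tc1 WT sample. In STAT3-/- cells it was lost in 9, among them leaving out any STAT3-/- sample or either Tc1 WT sample, with limma adjusted p of up to 0.342.

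Of the kinases and STATs, 5 of 7 were tested, and 2 were called in Tc17 STAT3-/- over WT, the deleted Stat3 and Stat5a. Stat5a, which carries IL-2, IL-7 and IL-15 signals, had a log2 change of -0.30 (limma adjusted p = 0.0409), a call lost in 12 of the 22 alternative settings, among them leaving out any single sample but Tc17 WT sample 2. Stat5b was at -0.25 (limma adjusted p = 0.0799), Jak1 at 0.21 (limma adjusted p = 0.101) and Stat6 at 0.13 (limma adjusted p = 0.400). In WT cells Stat5a and Stat5b were higher in Tc17 than in Tc1, by 0.59 and 0.41 on the log2 scale (limma adjusted p = 0.00230 and 0.0125), the Stat5b call being lost without Tc1 WT sample 1 or 2 (limma adjusted p = 0.0519 and 0.0848). Jak3 was not analysed here.

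Feedback inhibitors moved in both directions. Of 6 tested, 2 rose and 1 fell in Tc17 STAT3-/- over WT. Socs3, which IL-6 and STAT3 induce, had a log2 change of -1.46 (limma adjusted p = 2.0e-05), with values of 6.03, 6.03 and 5.94 in Tc17 STAT3-/- cells, against 7.37, 7.49 and 7.62 in Tc17 WT cells. Socs2, which STAT5 induces, rose by 0.97 (limma adjusted p = 0.000213), with 8.70, 8.69 and 8.54 in Tc17 STAT3-/- cells, against 7.63, 7.98 and 7.53 in Tc17 WT cells. Ptpn6, the phosphatase SHP-1, rose by 0.46 (limma adjusted p = 0.0241). That call was lost in 5 of the 22 settings, with limma adjusted p of 0.0655 and 0.165 without Tc17 STAT3-/- sample 1 or 2, and with a change of 0.29 (limma adjusted p = 0.0892) without Tc17 WT sample 2. Cish, Socs1 and Ptpn2 did not pass, at -0.25, -0.12 and -0.31. Losing STAT3 had a different effect on Socs2 and Socs3 in Tc17 than in Tc1 cells, by the interaction term (limma adjusted p = 0.00373 and 0.00165).

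Of 8 genes that IL-2 and STAT5 control, 3 rose and 2 fell in Tc17 STAT3-/- over WT. Prdm1, the effector factor Blimp-1, rose by 1.47 (limma adjusted p = 0.000132), with 8.09, 8.13 and 8.17 in Tc17 STAT3-/- cells, against 6.81, 6.43 and 6.54 in Tc17 WT cells. Gzmb, the granzyme B gene, rose by 0.93 (limma adjusted p = 0.000275), and Pim1, a kinase gene, rose by 0.46 (limma adjusted p = 0.0109), a call lost without Tc17 STAT3-/- sample 1 or 2 (limma adjusted p = 0.0799 and 0.0693). Bcl6, which opposes Blimp-1, was lower, with a log2 change of -1.10 (limma adjusted p = 0.00847), and passed the filter through Tc17 WT alone. Without Tc17 STAT3-/- sample 2 its call was lost (limma adjusted p = 0.0581). Pim2, a related kinase gene, had a log2 change of -0.39 (limma adjusted p = 0.0416), lost in 9 of the 22 settings, among them leaving out any sample but those of Tc1 WT. Bcl2, Myc and Ccnd2, genes of survival and growth, were at -0.00, 0.09 and -0.06 and did not pass.

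**Figure D3:**
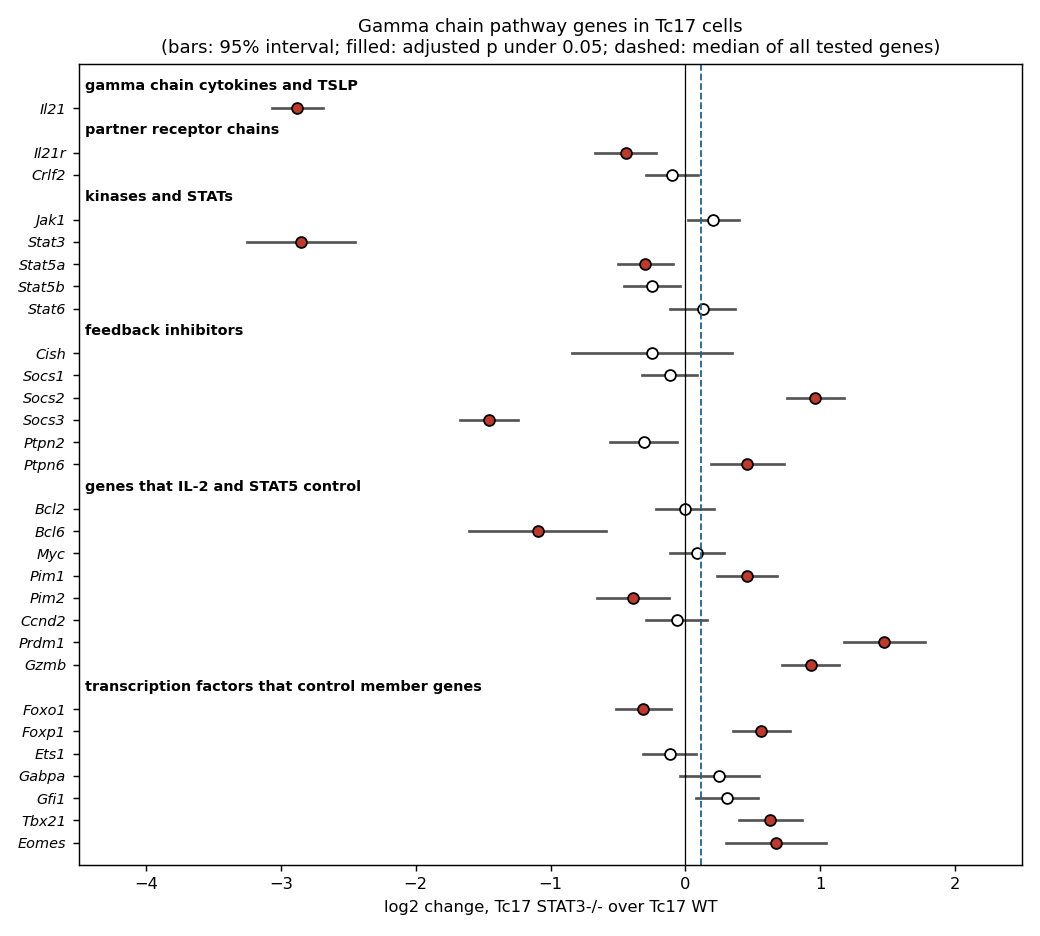
Log2 change (horizontal axis) of the 29 tested pathway genes in Tc17 STAT3-/- over Tc17 WT, grouped by role, with 95% intervals as bars. Filled points passed at a limma adjusted p under 0.05 and the dashed line is the median of all tested genes. Il21 and Stat3 stand farthest to the left and Prdm1 farthest to the right.

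Transcription factors that are known to act on receptor genes were read last. Of 7 tested, 3 rose and 1 fell in Tc17 STAT3-/- over WT. Foxo1, which is known to drive Il7r, had a log2 change of -0.31 (limma adjusted p = 0.0337), a call lost in 9 of the 22 settings, among them leaving out any sample but those of Tc1 STAT3-/-. Its values were 9.07, 9.08 and 8.99 in Tc17 STAT3-/- cells, against 9.38, 9.33 and 9.37 in Tc17 WT cells. Foxp1, which opposes FOXO1 at Il7r, rose by 0.56 (limma adjusted p = 0.00340), with 9.56, 9.57 and 9.70 in Tc17 STAT3-/- cells, against 8.995, 8.95 and 9.20 in Tc17 WT cells. Tbx21 and Eomes, which encode T-bet and Eomesodermin and are known to drive Il2rb, rose by 0.63 and 0.67 (limma adjusted p = 0.00323 and 0.0174). The Eomes call was lost without Tc17 STAT3-/- sample 1 or 2 (limma adjusted p = 0.121 and 0.0536) and without Tc17 WT sample 2 (limma adjusted p = 0.0953). In WT cells Tbx21 and Eomes had log2 changes of -0.99 and -1.58 in Tc17 over Tc1 (limma adjusted p = 0.000327 and 0.000287). Il2rb was at -0.34 there, a call lost in 9 of the 22 settings. In STAT3-/- cells Eomes was also called lower in Tc17 than in Tc1, from -1.16 to -0.67 over the settings, a call lost in 4. Il2rb was at -0.14 in that comparison and not called (limma adjusted p = 0.719). The part of these factors in the receptor changes was not tested. Ets1, Gabpa and Gfi1 did not pass in the Tc17 genotype comparison, at -0.12, 0.25 and 0.31.

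No receptor gene had group means spanning 1 or more on the log2 scale, the span set for naming genes of like pattern. For the 3 receptor genes called in some comparison, the nearest genes were therefore picked after the values were seen. The measure was the root mean square difference over the 8 samples after each gene was centred on its own mean. Nearest to Il4ra were Car13, Lama5 and Rdh10, at 0.0397, 0.0585 and 0.0619 log2 units. Nearest to Il7r were Mllt6, Relb and Mir483, at 0.0318, 0.0422 and 0.0451. Nearest to Il2rb were Angel1, Rgs3 and U2surp, at 0.0409, 0.0415 and 0.0439.

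Marker genes of CD8 T cells and of other cell types were examined beside these results. Of the 7 CD8 T cell markers tested, Cd8a was higher in Tc17 STAT3-/- than in Tc17 WT by 0.30 on the log2 scale (limma adjusted p = 0.0446), and Cd5 had a log2 change of -0.33 (limma adjusted p = 0.0371). The Cd8a call was lost in 12 and the Cd5 call in 11 of the 22 settings, among them leaving out either Tc17 STAT3-/- sample, either Tc1 WT sample or Tc17 WT sample 2 for both genes. Among B cell markers Cd79b was higher in Tc17 STAT3-/- than in Tc17 WT by 0.78 on the log2 scale (limma adjusted p = 0.00183), while the defining markers Cd79a, Ms4a1 and Pax5 lay at or below 4.31 on every array. The summed level of the measured B cell markers was 7.71 to 7.85 in Tc17 STAT3-/- and 7.10 to 7.24 in Tc17 WT cells. Among myeloid markers Cd68 had a log2 change of -1.12 (limma adjusted p = 0.000243), with Lyz2 at 2.96 to 4.10 and Itgam, Csf1r, Adgre1 and Itgax at or below 4.58. The summed level of the myeloid markers was 7.41 to 7.49 in Tc17 STAT3-/- and 8.15 to 8.29 in Tc17 WT cells. Kit was higher by 0.88 (limma adjusted p = 0.00554), with the mast cell genes Cpa3 and Mcpt4 at or below 3.16. Cd4 and Zbtb7b, markers of CD4 T cells, were not called. Of the 4 markers of NK and innate-like T cells only Sox13 was tested, and it was not called. Ncr1, Klrb1c and Zbtb16 lay below the filter in all groups. The part of such cells in the receptor results was not tested.

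**Figure D4:**
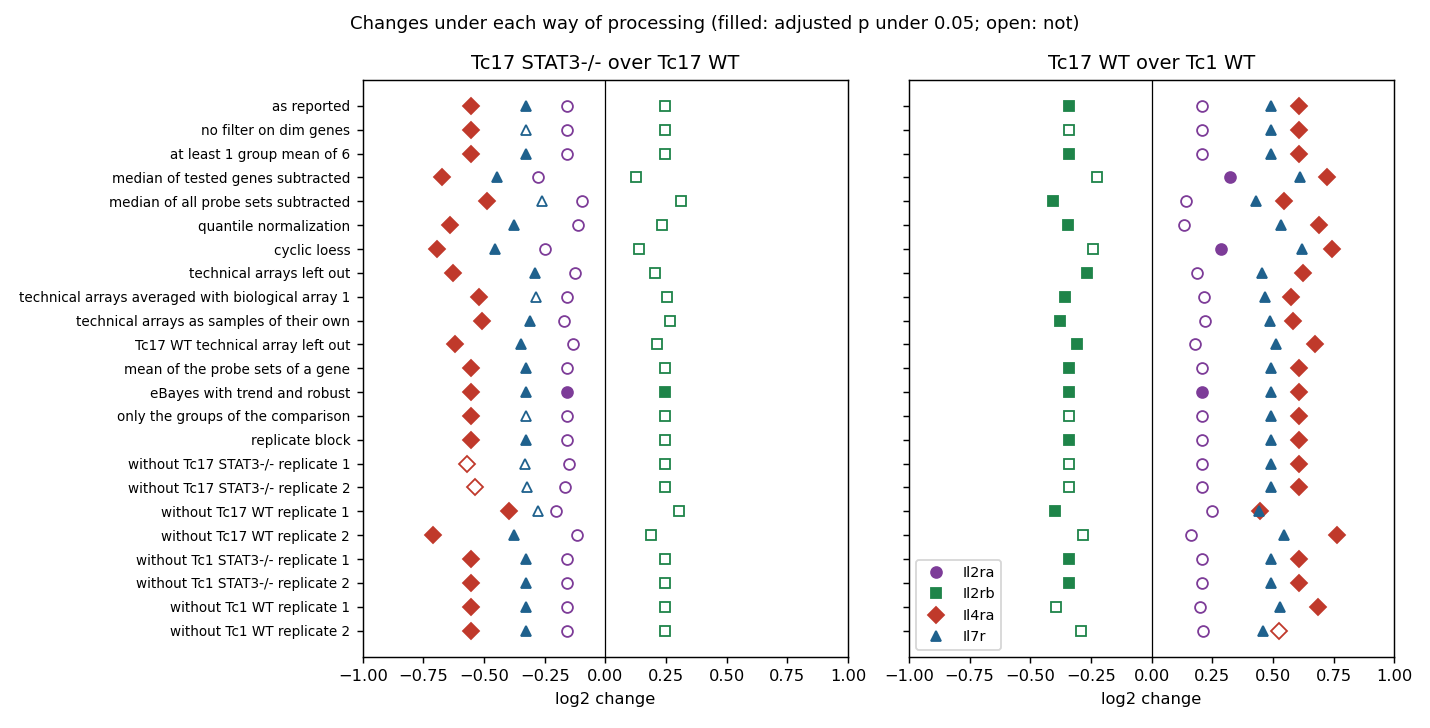
Log2 change (horizontal axes) of Il2ra, Il2rb, Il4ra and Il7r as reported and under 22 alternative ways of processing (rows), for Tc17 STAT3-/- over Tc17 WT and for Tc17 WT over Tc1 WT. Filled symbols passed at a limma adjusted p under 0.05. Every symbol stays on its side of 0, with Il4ra from -0.71 to -0.40 in the first comparison.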

How the data were processed

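The authors deposited log2 values, 1 per probe set and array, made with RMA and Partek per the submitters' processing notes. Versions and the order of steps were not given in the sources used here. RMA narrows differences near background, so changes of dim genes are understated.

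The annotation gave 1 symbol to 23521 of 41345 probe sets, several to 1814 and none to 16010. The probe set with the highest mean was kept for the 1082 genes with more than 1. Entrez identifiers of 23328 probe sets matched RefSeq and changed 0 symbols.

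Group means were fitted with limma 3.58.1 (lmFit, contrasts.fit, eBayes) in R 4.3.3 with version 1.17.8 of data.table, on 8 samples with 4 residual and 4.87 prior degrees of freedom. Calls used a Benjamini-Hochberg adjusted p under 0.05 over 9862 genes. Tests were two-sided. The fit was tested on simulated data. Plots were made in Python 3.11.15 with matplotlib 3.10.9.

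The members and lists were chosen with earlier results of these data known. Named genes were the listed receptors, the pathway lists and Stat3. Animals and cultures behind the replicates are unnamed in the labels, and p-values thus reflect only the spread of these samples, in part perhaps technical. Within a group, differences over tested genes had an SD of 0.144 to 0.192 for biological array 1 against 2, and of 0.209 to 0.352 for biological array 2 against the technical one. For biological array 1 against the technical one the SD was 0.195 to 0.372. Array number limits the precision.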

Additional observations from a re-analysis of the deposited data

Results flagged for a closer look

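Among the receptor, pathway and marker genes listed here, 8 were called for the difference between the genotype effects, against 676 of all 9862 genes tested (6.85%). Of the 29 pathway genes tested 20.7% were called, 4 higher and 2 lower. The others were Cd79b and Cd68, the only tested markers of B cells and of myeloid cells. The lists were chosen with earlier results known, so these counts are a description. In these 8, none of them a receptor gene, the effect of losing STAT3 differed between Tc17 and Tc1 cells by the interaction term of the limma fit at an adjusted p under 0.05. The values are the log2 change in Tc17 minus that in Tc1. The difference was -2.92 for Il21 (limma adjusted p = 8.6e-06), which passed the filter through Tc17 WT alone. In Tc17 WT the Il21 arrays spread far more widely than the averaged samples that the fit used. The difference was -1.17 for Socs3 (limma adjusted p = 0.00165) and 0.99 for Socs2 (limma adjusted p = 0.00373). Prdm1 differed by 1.33 (limma adjusted p = 0.00477), Gzmb by 0.99 (limma adjusted p = 0.00378) and Tbx21 by 0.64 (limma adjusted p = 0.0357). The Tbx21 call was lost in 7 of its 21 alternatives, among them leaving out any sample but those of Tc17 WT. Of the marker genes, Cd79b differed by 0.74 (limma adjusted p = 0.0285) and Cd68 by -1.09 (limma adjusted p = 0.00539). The Cd79b call was lost in 7 of its 21 alternatives, among them leaving out either STAT3-/- sample of Tc17 or of Tc1, Tc17 WT sample 2 or Tc1 WT sample 1.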

How the results depend on the processing

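No called receptor gene changed sign under the 22 alternatives. In Tc17 STAT3-/- over WT, 1 receptor gene in place of 2 was called with no filter on dim genes, with the median of all probe sets subtracted, with the technical arrays averaged with biological array 1 and with only the groups of the comparison, each time Il4ra. With trend and robust options 4 were called, and leaving out 1 replicate gave 0 to 2. Il4ra ranged from -0.71 to -0.40 and Il7r from -0.46 to -0.26. For the difference between the genotype effects, 1 in place of 0 was called, Il4ra, with the median of tested genes subtracted, cyclic loess, all technical arrays left out, only that of Tc17 WT left out, and the replicate block; leaving out 1 replicate gave 0 to 1, the call coming without Tc17 WT replicate 2. In Tc17 over Tc1 in WT cells, leaving out 1 replicate gave 1 to 3, with Il7r alone called without Tc1 WT replicate 2, where Il4ra had a limma adjusted p of 0.0524. Il7r was called there in 22 of 22 settings and Il2rb lost its call in 9. Subtracting the median of tested genes or cyclic loess called Il2ra in its place. Tc1 STAT3-/- over WT and Tc17 over Tc1 in STAT3-/- cells gave 0 receptor genes in every setting. The causes were not tested.

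With the replicate number as a block, 2, 0, 1, 3 and 0 receptor genes and 3056, 15, 1018, 3039 and 295 genes were called in Tc17 STAT3-/- over WT, Tc1 STAT3-/- over WT, their difference, Tc17 over Tc1 in WT and Tc17 over Tc1 in STAT3-/-, against 2473, 6, 676, 2468 and 204 without it. Il4ra then had a limma adjusted p of 0.0470 in the difference. Deviations of same-numbered samples correlated from 0.0980 to 0.455, with 2 numbers per group. The 0.455 was that of the 2 Tc1 genotypes, and the 2 Tc17 genotypes had 0.0988. Both genotypes of a condition shared a culture, but the labels do not say whether same-numbered samples did. The numbers were thus not shown to pair the samples in both conditions.

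Over all genes, leaving out 1 replicate gave 949 to 3192 calls in Tc17 STAT3-/- over WT, 244 to 1553 for the difference, 1098 to 3242 in Tc17 over Tc1 in WT and 65 to 247 in STAT3-/-. With the technical arrays left out 24 genes were called in Tc1, 1259 for the difference and 409 in Tc17 over Tc1 in STAT3-/-. Other counts in Tc1 beyond 1.5 times were 16 with these arrays averaged with biological array 1, 13 with them as samples of their own and 14 without that of Tc17 WT; the difference gave 384 with no filter, and Tc17 over Tc1 in WT gave 1479 with only its own groups. Scaling moved the split of calls. Of the calls in Tc17 STAT3-/- over WT 72.7% were higher as deposited, 49.0% with the median of tested genes subtracted, 54.8% with cyclic loess, 60.3% with quantile normalization and 82.5% with the median of all probe sets subtracted. For Tc17 over Tc1 in WT these shares were 28.0%, 51.0%, 46.5%, 39.8% and 18.3%.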
